A study of Mus musculus with 8 samples.

Results

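The genes described here encode the adaptor proteins that sit directly below the TNF receptors: the 6 TRAF genes Traf1 to Traf6, Tradd, Ripk1, and Birc2 and Birc3, which encode the ubiquitin ligases cIAP1 and cIAP2. They were chosen by name, as the rows of the count table whose Ensembl gene identifiers carry these symbols in GENCODE M21, and all 10 were found among the 54532 genes of the table. Bulk RNA-seq was available for prostates of 8 male NOD/ShiLtJ mice, a strain with spontaneous autoimmune disease and inflamed, hyperplastic prostates. The control group (control 1, 3, 65 and 69) received the PBS vehicle, and the etanercept-treated group (etanercept 17, 19, 50 and 52) received etanercept, a TNF receptor fused to an antibody tail that captures TNF, at 4 mg/kg by intraperitoneal injection. Both groups had 2 injections per week for 5 weeks from an age of 25 weeks, and tissue was taken at 30 weeks. Diabetic and non-diabetic mice were pooled by the study, and the sample labels do not give the diabetic status of a mouse.

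TNF receptor 1 carries a death domain. When TNF binds, TRADD docks on that domain and brings in the kinase RIPK1 and the ubiquitin ligase TRAF2, and TRAF2 carries cIAP1 and cIAP2, which attach ubiquitin chains to RIPK1. These chains hold the kinases that switch on NF-kappaB and the MAP kinases, and without them RIPK1 can turn to apoptosis or necroptosis. TNF receptor 2 has no death domain and binds TRAF2 directly, together with TRAF1 and the cIAPs.

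The total count per mouse lay between 13760669 and 25178942, and 15472 genes passed the expression filter and were tested. Expression is given as CPM, the count of a gene per 1000000 counts of its library, after TMM scaling, and log2 fold changes are positive where expression was higher with etanercept. The prostate markers Pbsn, Epcam and Krt8 were present in all 8 mice, with Pbsn between 1094 CPM in control 69 and 9172 CPM in control 1. The 5 seminal vesicle genes Svs2, Svs3a, Svs4, Svs5 and Pate4 summed to 97191 CPM in etanercept 17, 3998 CPM in control 69 and 667 CPM in etanercept 50, and to at most 26.8 CPM in the other mice. The 11 T cell markers summed to between 92.5 and 242.7 CPM in control and between 68.5 and 116.4 CPM in etanercept-treated mice, the 7 macrophage markers to between 310.0 and 957.9 CPM and between 243.7 and 335.3 CPM, and the 5 adipocyte markers to between 30.9 and 463.1 CPM and between 0.815 and 17.2 CPM. No gene of these marker lists was at 0 in every mouse, and control 3 had the highest sum for all 3 lists. In bulk tissue, fewer cells of a type and less RNA per cell cannot be told apart.

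The first comparison asked whether blockade of TNF changed the expression of these adaptors. All 10 genes passed the expression filter, and 0 of the 10 differed between the groups at a Benjamini-Hochberg adjusted p of 0.05 or less in the quasi-likelihood test of edgeR, against 0% of all genes tested. At a raw p of 0.05 or less the number was also 0 of 10, against 6.62% of all genes tested (2.99% higher and 3.63% lower with etanercept), and DESeq2's Wald test gave 0 of 10 at either threshold, against 0.0898% of its genes at an adjusted and 5.84% at a raw p of 0.05 or less. With single mice left out, the number at a raw p of 0.05 or less was 2 without control 69 and 1 without etanercept 17, against 11.4% and 6.81% of all genes in the same fits. In 0 of the 10 genes did the values of the groups fail to overlap, against 4.94% of all genes tested. The fitted log2 fold change was positive in 6 genes and negative in 4, with a median of 0.055 beside -0.0099 over all genes tested. The 95% interval of the log2 fold change lay within -1 and 1 in 7 of the 10 genes. It reached below -1 in Traf2 and Traf5 and above 1 in Traf6, so that a larger change in those 3 genes was within the error of the measurement.

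**Figure D1:**
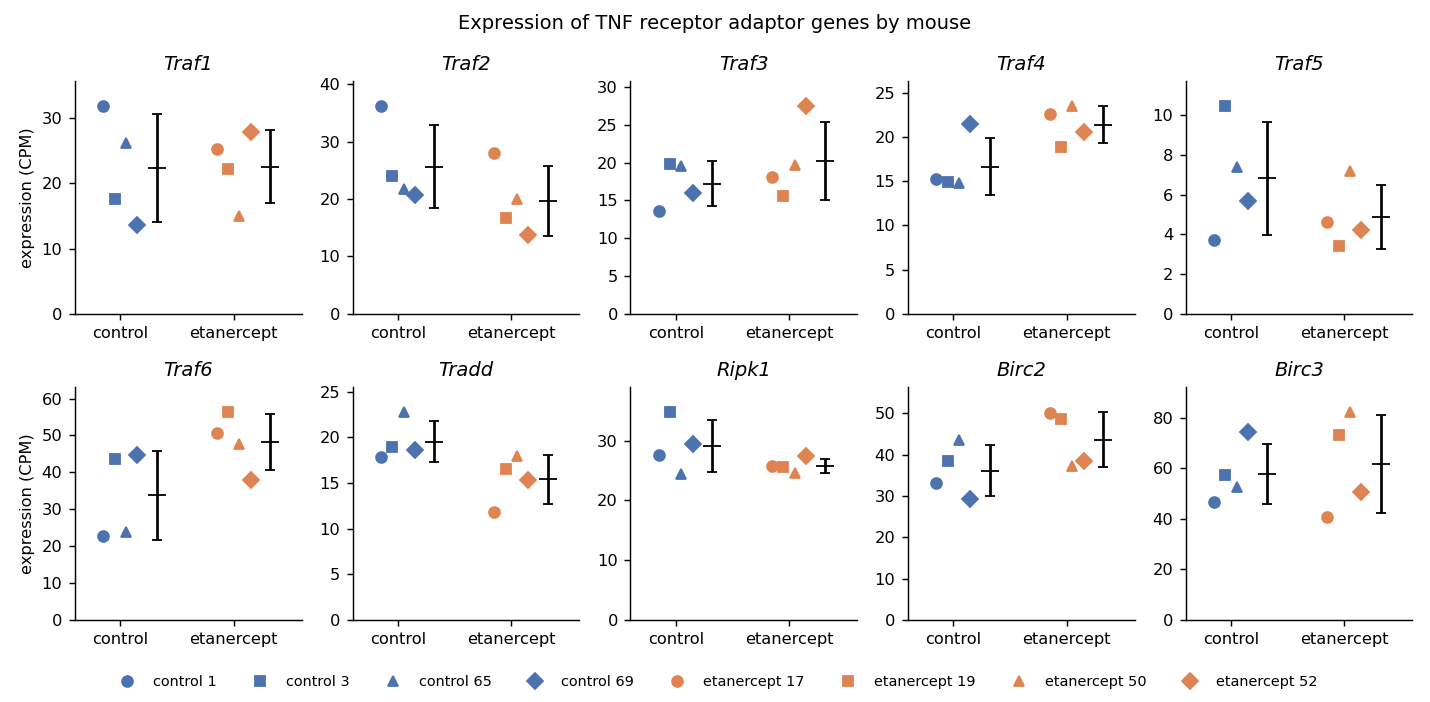
Expression of each of the 10 genes in CPM (vertical axes, starting at 0) in the 4 control (blue) and 4 etanercept-treated mice (orange); each symbol is 1 mouse, and the black bar is the mean with its SD. The values of the groups overlap in every panel, and Traf4 in control 69, at 21.5 CPM, lies apart from the other control mice.

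Tradd (chromosome 8, 105258286 to 105264609, GRCm38, minus strand) encodes the adaptor that binds the death domain of TNF receptor 1. It had 17.8, 18.9, 22.8 and 18.6 CPM in control 1, 3, 65 and 69 and 11.8, 16.5, 18.0 and 15.3 CPM in etanercept 17, 19, 50 and 52. Etanercept 17 was the lowest mouse, and the groups overlapped by a narrow margin, with etanercept 50 just above control 1 and below the other 3 control mice. The means were 19.5 ± 2.21 CPM and 15.4 ± 2.65 CPM (SD, n = 4 each), and the log2 fold change was -0.34 (standard error 0.21, 95% interval -0.81 to 0.13, edgeR adjusted p = 0.822).

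Ripk1 (chromosome 13, 34002363 to 34037147, plus strand), the gene of the kinase that carries the ubiquitin chains, varied least between mice. It had 27.6, 34.8, 24.4 and 29.5 CPM in control 1, 3, 65 and 69 and 25.7, 25.6, 24.6 and 27.4 CPM in etanercept 17, 19, 50 and 52. The etanercept-treated values fell inside the control range, and their coefficient of variation was 4.48% beside 14.9% in control mice. With etanercept the log2 fold change was -0.17 (standard error 0.17, 95% interval -0.55 to 0.21, adjusted p = 0.912), and it was -0.078 without control 3 and -0.27 without control 65. Its exons overlap those of Serpinb6a on the other strand over 241 of 8344 bases. If reads were counted without regard to strand, reads there cannot be assigned. The pseudogene Gm17084, which covers 511 bases of the Ripk1 exons, had 0 counts in all mice.

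Traf2 (chromosome 2, 25517982 to 25546940, minus strand) encodes the TRAF protein that both receptors share. It had 36.2, 24.1, 21.7 and 20.7 CPM in control 1, 3, 65 and 69 and 28.0, 16.6, 20.03 and 13.8 CPM in etanercept 17, 19, 50 and 52. Control 1 was the highest, and 3 of the 4 etanercept-treated mice lay below every control mouse while etanercept 17 lay above 3 of them. Its log2 fold change was -0.39 (standard error 0.28, 95% interval -1.01 to 0.23, edgeR adjusted p = 0.847). Without etanercept 17, the mouse with 97191 CPM of seminal vesicle genes, it was -0.61, with a raw edgeR p of 0.0482; the part of the seminal vesicle RNA in this was not tested. Without control 1, the highest mouse, it was -0.19, with a raw edgeR p of 0.481.

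Traf1 (chromosome 2, 34941750 to 34961772, minus strand), which encodes the 1 protein of these 6 TRAFs without a RING finger, is a known NF-kappaB target gene. It had 31.9, 17.6, 26.3 and 13.5 CPM in control 1, 3, 65 and 69 and 25.3, 22.1, 14.9 and 27.9 CPM in etanercept 17, 19, 50 and 52. Both the highest and the lowest mouse were control mice, and the means of 22.3 ± 8.30 and 22.6 ± 5.61 CPM (SD, n = 4 each) differed by far less than the spread. The log2 fold change was 0.014 (standard error 0.31, 95% interval -0.67 to 0.70, adjusted p = 0.999), and its sign depended on the scaling and on single mice.

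Traf3 (chromosome 12, 111166370 to 111267153, plus strand) encodes the adaptor that, with TRAF2 and the cIAPs, keeps the kinase NIK low and so holds back the non-canonical NF-kappaB pathway. It had 13.6, 19.8, 19.5 and 16.03 CPM in control 1, 3, 65 and 69 and 18.1, 15.6, 19.7 and 27.5 CPM in etanercept 17, 19, 50 and 52. Apart from etanercept 52 all values lay within the control range. The log2 fold change of 0.23 (standard error 0.24, 95% interval -0.31 to 0.77) became 0.034 without etanercept 52 and 0.11 without control 1. Map3k14, the gene of NIK, had 4.48 ± 2.25 CPM in the control group and 3.49 ± 1.258 CPM in the etanercept group (SD, n = 4 each), a difference within the spread.

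Traf5 (chromosome 1, 191997205 to 192092559, minus strand), whose product serves CD27, CD40 and related receptors of lymphocytes, was the lowest of the 10 genes. It had 3.72, 10.5, 7.40 and 5.67 CPM in control 1, 3, 65 and 69 and 4.60, 3.42, 7.17 and 4.23 CPM in etanercept 17, 19, 50 and 52, from between 61 and 157 counts per mouse. Control 3, the mouse with the highest sums of T cell, B cell and macrophage markers, was the highest. The log2 fold change was -0.49 (standard error 0.42, 95% interval -1.44 to 0.47, edgeR adjusted p = 0.895), the widest interval of the 10 genes, and it was -0.20 without control 3 and -0.74 without etanercept 50.

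Traf4 (chromosome 11, 78158499 to 78165589, minus strand), an epithelial member of the family, had 15.3, 14.9, 14.9 and 21.5 CPM in control 1, 3, 65 and 69 and 22.7, 18.9, 23.6 and 20.6 CPM in etanercept 17, 19, 50 and 52. All 4 etanercept-treated mice lay above 3 of the control mice, and only control 69 lay among them. Its log2 fold change was 0.36 (standard error 0.20, 95% interval -0.095 to 0.82, adjusted p = 0.797). Without control 69 it was 0.51, with a raw edgeR p of 0.0299 and an adjusted p of 0.384.

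Traf6 (chromosome 2, 101678429 to 101701669, plus strand) encodes the adaptor of the IL-1 and Toll-like receptors, of CD40 and of RANK. It had 22.7, 43.7, 23.7 and 44.8 CPM in control 1, 3, 65 and 69 and 50.7, 56.3, 47.6 and 38.0 CPM in etanercept 17, 19, 50 and 52. The control mice fell into a low pair, control 1 and 65, and a high pair, and 3 of the 4 etanercept-treated mice lay above all of them. Its log2 fold change of 0.51 was the largest of the 10 in size (standard error 0.26, 95% interval -0.079 to 1.11, edgeR adjusted p = 0.776). Without control 69 it was 0.68, with a raw edgeR p of 0.0313 and an adjusted p of 0.39. Without that mouse, 1826 genes of the whole table had a raw p of 0.05 or less, against 1024 with all mice, so Traf4 and Traf6 were 2 of many. Without control 1, 1 of the low pair, the value for Traf6 was 0.34, with a raw edgeR p of 0.221.

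Birc2 and Birc3 are neighbours on the minus strand of chromosome 9, at 7818227 to 7837064 and 7848699 to 7873186, with 11634 bases and no annotated gene between them. Their coding sequences were identical at 76.7% of 1774 aligned bases, whereas the 15 pairs of TRAF genes lay between 63.6% and 70.02%. The longest stretch that the coding sequences of Birc2 and Birc3 share without a mismatch was 114 bases, at chr9:7821098-7821211 in Birc2 and chr9:7854491-7854604 in Birc3 (GRCm38, minus strand, within 1 coding exon of each gene). It is shown because it bears on how far the reads of these genes can be told apart. The shared bases are in capitals, with 15 coding bases of each gene on both sides.
Birc2: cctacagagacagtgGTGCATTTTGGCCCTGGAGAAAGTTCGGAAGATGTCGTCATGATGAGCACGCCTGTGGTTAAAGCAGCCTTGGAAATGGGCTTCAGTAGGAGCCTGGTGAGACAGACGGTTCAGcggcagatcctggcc
Birc3: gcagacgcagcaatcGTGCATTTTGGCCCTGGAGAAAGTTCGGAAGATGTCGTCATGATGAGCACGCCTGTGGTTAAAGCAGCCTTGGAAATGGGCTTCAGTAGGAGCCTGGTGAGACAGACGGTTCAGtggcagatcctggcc
The stretch is shorter than a read of 150 nt, and each gene has differing bases in its flanks. Between the TRAF genes the longest shared stretch was 25 bases, in Traf3 and Traf5.

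Birc2 had 33.2, 38.4, 43.5 and 29.3 CPM in control 1, 3, 65 and 69 and 50.1, 48.6, 37.3 and 38.5 CPM in etanercept 17, 19, 50 and 52. Etanercept 17 and 19 lay above every control mouse, and etanercept 50 and 52 lay within the control range. The log2 fold change was 0.27 (standard error 0.19, 95% interval -0.14 to 0.69, edgeR adjusted p = 0.840). Birc3, a known NF-kappaB target gene, had 46.5, 57.5, 52.7 and 74.2 CPM in control 1, 3, 65 and 69 and 40.6, 73.1, 82.2 and 50.7 CPM in etanercept 17, 19, 50 and 52. The highest and the lowest mouse were both etanercept-treated. Its log2 fold change was 0.095 (standard error 0.25, 95% interval -0.46 to 0.65, adjusted p = 0.987) and changed sign without control 1 or without etanercept 50.

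**Figure D2:**
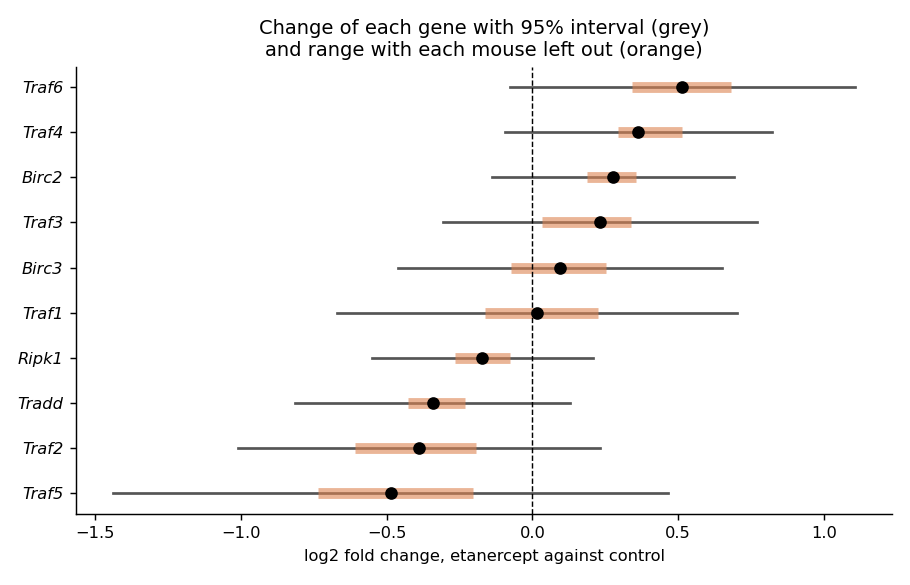
Log2 fold change of etanercept-treated against control mice (horizontal axis) for each gene; the black point is the estimate, the grey line its 95% interval, and the orange band the range with each mouse left out in turn. All 10 intervals include 0, and the orange bands of Traf1 and Birc3 also cross 0.

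The promoters of the genes (250 bases before to 50 bases after the start, RefSeq, GRCm38.p6) were compared to see what the genes share in sequence. Windows were found for 9 of the 10 genes, 11 in all; Tradd had no entry. Traf1 and Birc3 had the windows with least CpG, 4 and 7 CpG dinucleotides at a GC content of 48.7% and 43.0%. The other 9 windows held between 17 and 59 CpG dinucleotides at a GC content between 59.3% and 84.0%, beside a median of 7 and 52.7% over 32841 mouse promoters. The NF-kappaB consensus was searched on both strands and found in the Traf3 window alone, with its first base 10 bases before the start; 8.46% of all windows hold it. The cyclic AMP response element TGACGTCA was found in 1 Birc2 window, with its first base 35 bases before the start, and 1.79% of all windows hold it. TATAAA and the AP-1 motif TGANTCA, found in 13.6% and 7.81% of all windows, matched 0 of the 11. No overlap between the matches was possible, as each window held at most 1. The windows of the adjacent pair Birc3 and Birc2, of Traf1 and of Traf3 are printed to show the contrast in base composition, and capitals mark the NF-kappaB match in Traf3 and the TGACGTCA match in Birc2.
Traf1, chr2:34961723-34962022, minus strand: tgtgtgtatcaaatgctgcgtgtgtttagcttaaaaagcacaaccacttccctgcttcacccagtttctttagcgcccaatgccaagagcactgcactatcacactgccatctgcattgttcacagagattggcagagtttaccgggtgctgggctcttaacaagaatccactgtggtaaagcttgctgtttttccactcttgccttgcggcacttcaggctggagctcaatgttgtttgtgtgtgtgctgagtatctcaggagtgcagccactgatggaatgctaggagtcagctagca
Birc3, chr9:7873121-7873420, minus strand: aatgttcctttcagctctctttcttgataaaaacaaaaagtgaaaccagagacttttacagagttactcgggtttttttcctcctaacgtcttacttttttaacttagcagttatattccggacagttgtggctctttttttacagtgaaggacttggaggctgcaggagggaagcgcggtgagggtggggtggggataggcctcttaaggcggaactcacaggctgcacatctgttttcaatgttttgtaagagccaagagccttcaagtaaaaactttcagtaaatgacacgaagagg
Birc2, chr9:7837008-7837307, minus strand: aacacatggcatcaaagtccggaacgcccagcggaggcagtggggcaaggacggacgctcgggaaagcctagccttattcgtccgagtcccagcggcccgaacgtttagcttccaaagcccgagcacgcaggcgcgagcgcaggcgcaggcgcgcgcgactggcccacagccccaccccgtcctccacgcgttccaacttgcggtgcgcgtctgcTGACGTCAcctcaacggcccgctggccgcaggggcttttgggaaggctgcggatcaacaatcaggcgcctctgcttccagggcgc
Traf3, chr12:111166120-111166419, plus strand: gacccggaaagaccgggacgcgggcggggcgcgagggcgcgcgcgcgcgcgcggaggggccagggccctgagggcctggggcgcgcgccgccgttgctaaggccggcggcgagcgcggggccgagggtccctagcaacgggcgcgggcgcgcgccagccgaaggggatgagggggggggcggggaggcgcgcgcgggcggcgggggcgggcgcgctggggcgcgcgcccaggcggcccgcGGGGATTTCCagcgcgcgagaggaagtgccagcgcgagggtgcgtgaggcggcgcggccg
A match is a string of letters and not a measured site.

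Levels were then compared between genes as CPM per kb of annotated exon. Birc3 was highest at 11.9 ± 2.99 CPM per kb (SD, n = 8 mice), followed by Tradd at 9.35 ± 1.69, Birc2 at 8.71 ± 1.57, Traf4 at 5.78 ± 1.09, Traf6 at 5.20 ± 1.54, Traf2 at 4.44 ± 1.37 and Ripk1 at 3.29 ± 0.41 CPM per kb. Traf3 and Traf1 came next with 2.55 ± 0.57 and 2.55 ± 0.74 CPM per kb, and Traf5 was lowest at 1.28 ± 0.52 CPM per kb. The median of all 15466 tested genes with a known length was 3.67 CPM per kb, and the 10 genes thus ranged from the 26.5th percentile, Traf5, to the 77.3rd, Birc3. The level of Birc3 in its lowest mouse, 8.10 CPM per kb, was above that of Traf5 in its highest, 2.29 CPM per kb.

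Of the 9 neighbouring pairs in this order, 0 differed at an adjusted p of 0.05 or less in an exact sign-flip permutation test within mice (two-sided, Benjamini-Hochberg adjusted over 9 pairs). With 8 mice the smallest p of this test is 0.0078, or 0.0703 after adjustment for a pair that reaches it alone, so that no single pair could pass. The smallest adjusted p was 0.0844, shared by the 5 steps from Birc3 to Tradd, Birc2 to Traf4, Traf2 to Ripk1, Ripk1 to Traf3 and Traf1 to Traf5. The step from Traf1 to Traf5 was the largest, at 1.03 ± 0.88 on the log2 scale (SD, n = 8), with 7 of 8 mice in that direction. Tradd and Birc2, Traf4 and Traf6, Traf6 and Traf2, and Traf3 and Traf1 differed by at most 0.22 on the log2 scale over the 8 mice. For Tradd and Birc2 this pooled opposite orders of the group means: 10.5 and 7.88 CPM per kb in control, 8.25 and 9.53 CPM per kb in etanercept-treated mice. In control mice alone Tradd lay above Birc2 in 4 of 4, by 0.42 ± 0.16 (SD). There Traf2 ranked above Traf6 and Traf1 above Traf3, by 0.27 ± 0.80 and 0.049 ± 0.68. The place of Traf1 depended on the length used: its annotated exons, retained introns included, sum to 8819 bases and its longest transcript to 3436, and per kb of the longest transcript it rose from rank 9 to rank 5.

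**Figure D3:**
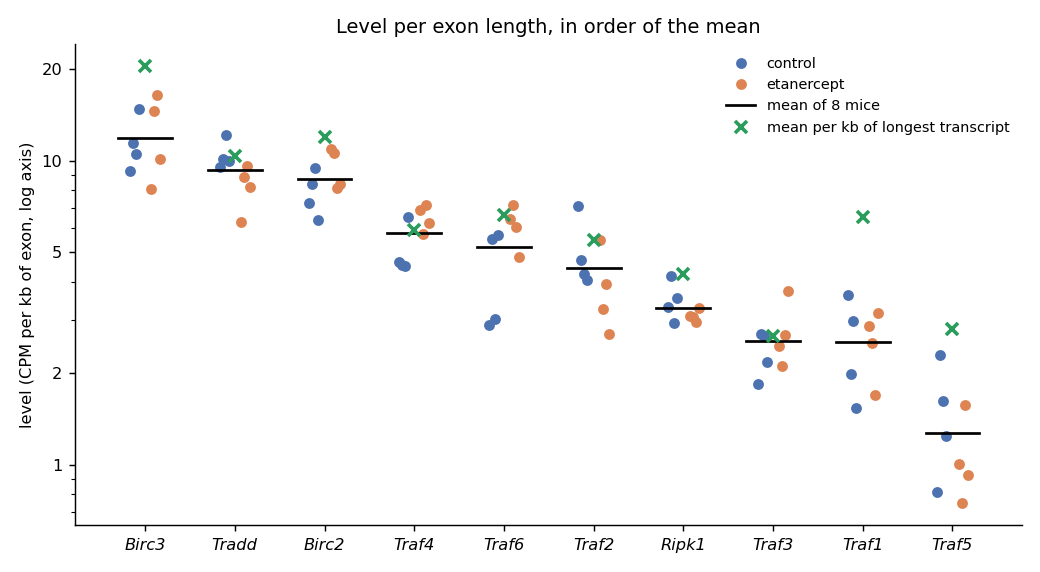
Level of each gene in CPM per kb of exon (vertical log axis) in control (blue) and etanercept-treated (orange) mice, ordered by the mean of 8 mice (black line); the green cross is the mean per kb of the longest transcript. The means of Birc3, Tradd and Birc2 lie above those of the TRAF genes, and Traf1 is the gene whose place moves most with the length used, from 2.55 to 6.53 CPM per kb.

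Traf1 and Traf2, and Tradd and Ripk1, were paired because their proteins act together, and Birc3 and Birc2 because they are neighbouring relatives. These 3 pairs were compared as ratios of levels per exon length within each mouse, which do not depend on the scaling of the libraries. The Traf1 to Traf2 ratio was 0.51, 0.42, 0.70 and 0.38 in control 1, 3, 65 and 69 and 0.52, 0.77, 0.43 and 1.17 in etanercept 17, 19, 50 and 52. With these exon lengths it was above 1 in etanercept 52 alone, whereas with the longest transcripts it was above 1 in 5 of 8 mice, and the groups overlapped. The mean log2 ratio was higher by 0.46 with etanercept (exact permutation test, two-sided, p = 0.229, n = 4 per group). The Birc3 to Birc2 ratio was 1.28, 1.37, 1.11 and 2.32 in control 1, 3, 65 and 69 and 0.74, 1.37, 2.01 and 1.20 in etanercept 17, 19, 50 and 52. Etanercept 17 was the 1 mouse with less Birc3 than Birc2. The mean log2 ratio differed by -0.22 (exact permutation test, two-sided, p = 0.6, n = 4 per group), and by 0.0067 without control 69 and 0.037 without etanercept 17. The Tradd to Ripk1 ratio was 2.88, 2.43, 4.16 and 2.82 in control 1, 3, 65 and 69 and 2.05, 2.88, 3.28 and 2.50 in etanercept 17, 19, 50 and 52, so that Tradd exceeded Ripk1 in all 8 mice. Its mean log2 ratio differed by -0.19 (exact permutation test, two-sided, p = 0.457, n = 4 per group). The ratios were not recomputed with the trend with gene length, described below, removed. After Benjamini-Hochberg adjustment over the 3 ratios each p was 0.6, and the smallest p that 4 mice against 4 allow is 0.0286 before adjustment.

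**Figure D4:**
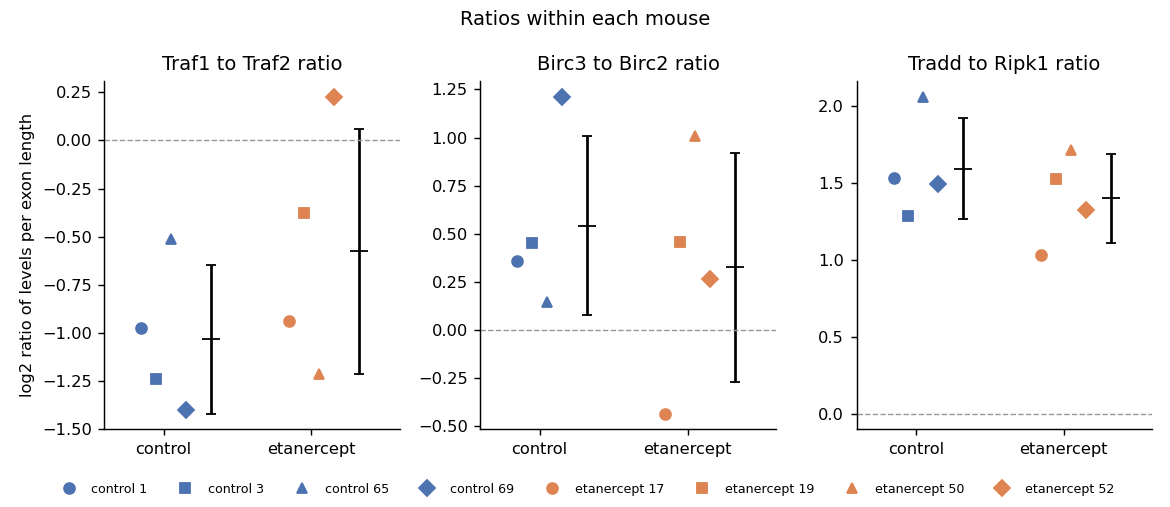
Log2 ratio of 2 genes' levels per exon length within each mouse (vertical axes) for Traf1 to Traf2, Birc3 to Birc2 and Tradd to Ripk1; each symbol is 1 mouse, the black bars are group means with SD, and the dashed line marks equal levels. The groups overlap in all 3 panels, and Tradd lies above Ripk1 in every mouse.

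The 10 genes did not vary as a block. Of the 45 pairs, 21 had a positive and 24 a negative Pearson's r of log2(CPM + 1) over the 8 mice, with a median of -0.027, and 0 passed Benjamini-Hochberg adjustment over the 45 pairs. Traf1 and Birc3 had the smallest p: their r was -0.79 (exact permutation p = 0.0250, adjusted p = 0.894) and Spearman's rho was -0.81 (exact permutation p = 0.0218, adjusted p = 0.919), and r was -0.52 without the 2 mice farthest from the median of Traf1 and -0.80 on deviations from the group means. The mice with most Traf1, control 1 and etanercept 52, were thus among those with little Birc3, and control 69 and etanercept 50, with least Traf1, had the most Birc3. Traf4 and Traf6 had an r of 0.68 (exact permutation p = 0.0697, adjusted p = 0.894) and a rho of 0.60 (exact permutation p = 0.132, adjusted p = 0.919), and r was 0.76 without the 2 mice farthest from the median of Traf4 and 0.43 on deviations from the group means. Groups of 4 mice were too few for a correlation within a group.

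Each gene was also set beside marker scores, the mean log2(CPM + 1) of marker genes of 8 cell types, and 0 of the 80 correlations passed Benjamini-Hochberg adjustment, with a smallest adjusted p of 0.342. Before adjustment, 8 had a permutation p of 0.05 or less. Traf5 had an r of 0.77 with the B cell score (exact permutation p = 0.0232, adjusted p = 0.342) and a rho of 0.76 (exact permutation p = 0.0368, adjusted p = 0.588), and r was 0.49 without the 2 mice farthest from the median score. With the T cell and macrophage scores its r was 0.67 and 0.65 (exact permutation p = 0.0667 and 0.0682, adjusted p = 0.477 for both), and 0.92 and 0.51 without the 2 farthest mice. Traf3 had an r of 0.81 with the smooth muscle score (exact permutation p = 0.0179, adjusted p = 0.342) and a rho of 0.86 (exact permutation p = 0.0107, adjusted p = 0.581), with r at 0.49 without the 2 farthest mice. Ripk1 had an r of 0.84 with the adipocyte score (exact permutation p = 0.00729, adjusted p = 0.342) and a rho of 0.64 (exact permutation p = 0.0962, adjusted p = 0.756), with r at 0.70 without the 2 farthest mice. Traf6 and the luminal epithelium score had an r of -0.80 (exact permutation p = 0.0257, adjusted p = 0.342) and a rho of -0.45 (exact permutation p = 0.267, adjusted p = 0.879), and without the 2 farthest mice r was 0.24, so this relation rested on those mice. Traf4 with the macrophage and T cell scores (r = -0.70 and -0.72), Traf3 with the fibroblast score (r = 0.78) and Traf1 with the luminal epithelium score (r = 0.71) made up the rest of the 8. For Birc3, r lay between -0.40 and 0.11 with the 8 scores.

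**Figure D5:**
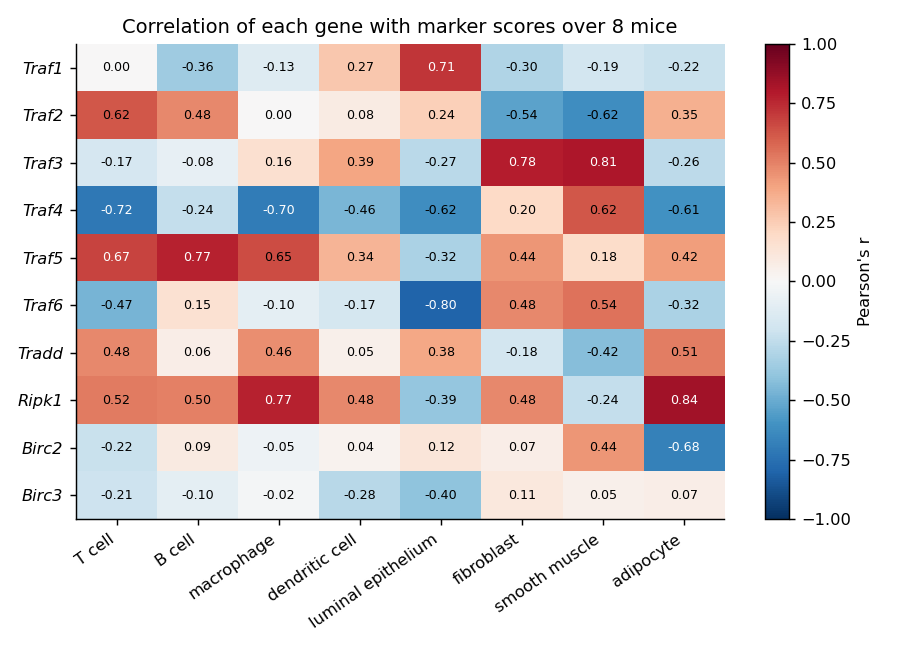
Pearson's r over 8 mice between log2(CPM + 1) of each gene (rows) and the mean log2(CPM + 1) of each marker list (columns), from blue (negative) to red (positive). The strongest values are 0.84 for Ripk1 with the adipocyte score and 0.81 for Traf3 with the smooth muscle score, and 0 of the 80 passed adjustment.

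The tested genes whose pattern over the 8 mice was most like that of each adaptor were Capn5, Cd59a and Dnajc2 for Traf1, Socs5, Tinagl1 and Serpinh1 for Traf3, Prkdc, Sec24a and Casp8 for Traf6, and Irf2 and Fam84a, after the unnamed gene model Gm38409, for Birc3, with r between 0.969 and 0.991. For Traf2 they were Gm15427, Elob and Gm4017, for Tradd Sigirr, Slc39a3 and Gm38604, for Ripk1 Epb41l2, Ddx21 and Hhex, for Birc2 Cyp46a1, Asb7 and Amotl1, for Traf4 Gm26773, Polk and Isg20, and for Traf5 Cenpq, Tmem156 and Gm7846. With 15472 genes and 8 mice, high values are frequent: 382 genes had an r above 0.9 with Birc3, 124 with Traf1 and 6 with Traf5.

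The genes around the adaptors were followed in 9 lists of 83 genes, of which 81 were tested; Tnfrsf25 and Ube2v1 did not pass the expression filter. None of them, 0 of 81, had an adjusted edgeR p of 0.05 or less. With the raw p, 5 were lower with etanercept and 0 were higher, 6.17% of those tested, beside 3.63% and 2.99% of all genes. The 5 became 10 without control 69, where 11.4% of all genes passed, and 1 without etanercept 19, where 5.19% did. They became 2 without control 3, control 65 or etanercept 50, against 5.89%, 4.22% and 5.03% of all genes, and 2, Map3k5 and Tnfrsf13b, with the trend with gene length removed, against 5.61%. The median log2 fold change over the 81 genes was -0.028 beside -0.0099 over all genes tested.

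Of the 12 tested receptor genes that signal through TRAFs, 11 had a negative log2 fold change, with a median of -0.61, beside 51.0% of all genes tested with a negative value, and 2 had a raw p of 0.05 or less. The exception, named for that after its value was seen, was Tnfrsf11a, the gene of RANK: it had 5.10, 12.9, 12.3 and 13.3 CPM in control 1, 3, 65 and 69 and 18.99, 20.5, 14.3 and 14.6 CPM in etanercept 17, 19, 50 and 52, and every treated mouse lay above every control mouse (log2 fold change 0.66, standard error 0.33, adjusted p = 0.770). Tnfrsf12a, the receptor of TWEAK, had 21.9, 20.2, 15.4 and 18.8 CPM in control 1, 3, 65 and 69 and 15.1, 8.77, 5.02 and 13.9 CPM in etanercept 17, 19, 50 and 52, and every treated mouse lay below every control mouse (log2 fold change -0.83, standard error 0.34, adjusted p = 0.739). Among all genes tested, 4.94% had groups that did not overlap, in either direction. Tnfrsf13b, the TACI receptor of B cells and plasma cells, was lower by a log2 fold change of -1.57 (standard error 0.67, adjusted p = 0.743), with overlapping groups and its highest value, 26.2 CPM, in control 3. Without that mouse it was -0.85, with a raw edgeR p of 0.210. The 3 plasma cell markers summed to between 1687 and 22926 CPM in control and between 1021 and 5463 CPM in etanercept-treated mice, and control 3 again held the most; their part in the receptor values was not tested. In the T cell list 4 of 11 markers, in the macrophage list 3 of 7, in the plasma cell list 3 of 3 and in the B cell list 0 of 5 were lower at a raw p of 0.05 or less and 0 were higher, beside 3.63% and 2.99% of all genes. Of the tissue markers, 4 of 4 tested for adipocytes, 2 of 4 for basal epithelium and 1 of 3 tested for skeletal muscle were lower, and 3 of 5 for smooth muscle were higher.

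Of the 9 NF-kappaB genes, 8 had a negative log2 fold change, with a median of -0.26, beside 51.0% of all genes tested with a negative value. Nfkbia and Bcl3 had a raw p of 0.05 or less, beside 3.63% of all genes tested that were lower at that threshold. With the trend with gene length removed, both missed this threshold. Nfkbia, the inhibitor that traps NF-kappaB in the cytoplasm and is itself an NF-kappaB target, had 69.99 ± 17.4 CPM in the control group and 49.1 ± 5.43 CPM in the etanercept group (SD, n = 4 each), with control 69, at 49.3 CPM, inside the treated range. Bcl3 had 11.5 ± 5.67 and 5.48 ± 1.265 CPM (SD, n = 4 each), and control 69, at 3.65 CPM, was the lowest of all 8 mice. Map3k5, the gene of the kinase ASK1 that TRAF2 and TRAF6 can activate, was the 1 gene of 14 downstream kinases with a raw p of 0.05 or less, beside 6.62% of all genes tested. It had 17.6, 24.3, 24.9 and 20.2 CPM in control 1, 3, 65 and 69 and 17.1, 13.4, 14.2 and 13.9 CPM in etanercept 17, 19, 50 and 52 (log2 fold change -0.57, standard error 0.20, adjusted p = 0.739). The groups did not overlap, as in 4.94% of all genes tested. Like Tnfrsf13b, the other 4 genes missed the raw threshold with 1 mouse left out, with a largest raw edgeR p of 0.0878 for Tnfrsf12a (without etanercept 19), 0.0928 for Nfkbia (without control 3), 0.113 for Bcl3 (without control 1) and 0.0527 for Map3k5 (without control 65).

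The other lists held 0 genes with a raw p of 0.05 or less: 6 adaptors of the Toll-like and IL-1 receptors, 7 relatives of the adaptors, 6 ubiquitin chain writers, 10 deubiquitinases and other brakes, 10 TRAF-binding proteins and 7 genes of the death arm. The gene with the smallest p of each list was Irak1, Xiap, Ube2d3, Itch, Tank and Mlkl, in that order. Ube2d3, an ubiquitin-conjugating enzyme, had 239.2 ± 12.1 CPM in the control group and 298.2 ± 21.8 CPM in the etanercept group (SD, n = 4 each) with no overlap, as in 4.94% of all genes tested. Its log2 fold change was 0.32 ± 0.14 (standard error), with an edgeR adjusted p of 0.743, and it was 0.14 with the length trend removed. Xiap, the nearest relative of Birc2 and Birc3 in the list, had 50.3 ± 2.81 and 60.3 ± 6.53 CPM (SD, n = 4 each), also with no overlap. Its log2 fold change of 0.26 became 0.13 with the length trend removed. The receptors themselves, Tnfrsf1a and Tnfrsf1b, differed by -0.067 ± 0.19 and -0.21 ± 0.42 on the log2 scale (standard error), values within their errors.

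Gene length moved with the groups. Across 15466 genes, Spearman's rho of exon length with how far a gene lay from its own mean in that mouse lay between -0.159 and -0.0113 in the control mice and between 0.064 and 0.154 in the etanercept-treated mice, without overlap. When this trend was removed from each library, the log2 fold change of Tradd, with 1866 exon bases the shortest of the 10, was -0.23 in place of -0.34, and those of the long genes Ripk1 and Traf6 were -0.29 and 0.40 in place of -0.17 and 0.51. That of Traf3, also long at 7350 exon bases, was 0.12 in place of 0.23. Whether length or treatment set these differences cannot be told apart.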

How the data were processed

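Poly(A)-selected libraries of 8 prostates were sequenced as paired reads of 150 nt. Per the labels, fastp, STAR 2.6.1d and featureCounts 1.5.0-p3 were used by the authors with the build mm10, and the deposited values are raw counts per gene and mouse, not normalized. The annotation is not given in the sources used here, and genes were named with GENCODE M21 (GRCm38), which holds 54495 of the 54532 identifiers. The counts of all 8 columns were mapped to a mouse by animal number.

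Counts were tested in R 4.3.3 by edgeR 4.0.16 with scaling by TMM, filterByExpr (minimum count 10) and the quasi-likelihood test, etanercept-treated against control, with Benjamini-Hochberg adjustment over 15472 genes and a threshold of 0.05. Since the labels name no batch, none was modelled. The 95% intervals use the standard errors of this test. DESeq2 1.42.0, the tool of the study's methods, was an alternative, with other scaling factors, filters, a robust fit, a block by animal number (under 20, over 49), removal of the length trend (lowess, span 0.3) and leaving out each mouse. Ratios used 0.5 counts added to both genes, and were compared with exact permutation tests over 70 assignments, correlations over 40320 orders and neighbouring levels over 256 sign flips. Each of the 10 adaptor genes had at least 61 counts in every mouse, and its standard error includes the spread between mice. The genes, lists and tests were chosen with earlier results of these data known. Named genes are the 10 adaptors, list genes with a raw p of 0.05 or less or else the smallest p of each list, the 3 genes most correlated with each adaptor, and markers. The genes of NIK, of the TNF receptors and of RANK were named in addition, that of RANK after its value was seen. Coding sequences are the longest complete ones per gene, aligned globally. The mice are separate animals.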

Additional observations from a re-analysis of the deposited data

Results flagged for a closer look

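Traf4 in control 69, at 21.5 CPM, lay far from the other 3 control mice, which had between 14.9 and 15.3 CPM: the gap took up 0.935 of the range of the group, above Dixon's critical value for 4 samples. It was the 1 group singled out among 36 groups of 4 mice examined for the adaptors, the ratios and the 5 list genes with a raw p of 0.05 or less, where chance alone singles out about 1 in 20. Control 69 also had 3998 CPM of seminal vesicle genes and the lowest sum of luminal epithelial markers, 4093 CPM; their part in the value of Traf4 was not tested.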

How the results depend on the processing

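No paired analysis was possible because the groups share no animal number. The count of adaptors with an adjusted p of 0.05 or less was 0 under all 17 alternatives, and that with a raw p of 0.05 or less was 0 except with single mice left out, when it lay between 0 and 2: Traf4 and Traf6 without control 69, and Traf2 without etanercept 17. The sign of the log2 fold change held under all 17 alternatives in 8 of the 10 genes. That of Traf1 became -0.0087 with upper-quartile factors, -0.084 with library size alone and -0.12 with the length trend removed, and ranged from -0.16 to 0.22 over the fits without 1 mouse. That of Birc3 ranged from -0.073 to 0.25 over the fits without 1 mouse. The difference in the log2 Birc3 to Birc2 ratio ranged from -0.44 to 0.037 without 1 mouse, and became positive without control 69 or without etanercept 17. Without 1 mouse, the differences of the other 2 ratios kept their sign, between 0.19 and 0.67 for Traf1 to Traf2 and between -0.30 and -0.037 for Tradd to Ripk1. The ratios were not recomputed with the length trend removed. There the log2 fold change of Tradd was -0.23 and that of Ripk1 -0.29, in place of -0.34 and -0.17. Tradd was then no longer the gene of that pair with the larger decrease. The count of list genes with a raw p of 0.05 or less, 5 in the main comparison, was 2 with the length trend removed (5.61% of all genes passed there) and lay between 1, without etanercept 19 (5.19%), and 10, without control 69 (11.4%); it was also 2 without control 3, control 65 or etanercept 50. These counts were recomputed after the data had been seen. The cause of these shifts was not tested. In the order of levels, 0 of 9 neighbouring pairs passed with either length, where a pair that alone reached the smallest p of the test could not pass. With a biological coefficient of variation of 0.547 across all genes and 4 mice per group, the intervals printed with each gene give the changes that remain within error.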
